A study of Mus musculus with 93 samples.

Results

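The genes described here are 9 adhesion molecules that leukocytes and the vessel wall use to hold on to each other: the selectins Sele and Selp, the immunoglobulin-family ligands Icam1 and Vcam1, the integrin subunits Itgal, Itgam, Itgb2 and Itga4, and Cd44. They were chosen by name, and each matched 1 of the 53465 genes in the table through its Ensembl identifier. All 9 passed the filter on low counts that left 19110 genes to test. Liver RNA was sequenced from 93 male mice of 7 inbred strains, of which WSB/EiJ, CAST/EiJ and PWK/PhJ are wild-derived and 129S1/SvImJ, A/J, C57BL/6J and DBA/2J are classical laboratory strains, kept at thermoneutrality (30 °C) from 6 wk of age. From 7 wk of age each mouse was fed CD, the control diet with 10% of its energy from fat, or WD, the Western diet with 40% from fat, for 17 wk. The 14 groups of strain and diet held 5 to 8 mice each. The labels name no transgene, deletion or drug in any group, and each strain stands for 1 inbred genotype in 1 sex.

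Leukocytes leave the blood in steps. Selectins on activated endothelium slow the cells down, chemokines switch their integrins to a binding state, and the integrins then hold on to ICAM-1 and VCAM-1 on the endothelial surface. In the liver much of this takes place in the sinusoids, where selectins matter less than in other tissues and CD44, which binds hyaluronan, also holds neutrophils. Bulk liver RNA is mostly from hepatocytes, so the 9 genes report on a minority of cells, and more cells of a type and more RNA in each cell cannot be told apart.

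Between 40020424 and 49894856 reads per mouse fell on genes, and RIN (RNA integrity number) was between 7 and 9.7. Reads of all strains were mapped to the C57BL/6J genome, and the share left unmapped reached 14.8% in CAST/EiJ against at most 3.87% in C57BL/6J. A level that differs between strains therefore carries a mapping difference that cannot be told apart from expression. The defining hepatocyte markers were present at high summed levels in every group, with 59000 to 214000 counts per 1e6 reads (CPM) per mouse. These 4 libraries stood apart from their groups. PWK/PhJ CD replicate 5 was the lowest of its group for Ptprc, the pan-leukocyte gene (5.91 against 9.06 to 14.4 CPM), for the endothelial gene Pecam1 and for the Kupffer cell gene Clec4f. A/J WD replicate 3 was the highest of its group for Ptprc (25.4 against 8.55 to 18.5 CPM) and for the neutrophil gene S100a8. C57BL/6J WD replicate 4 was the highest of its group for Ptprc (43.2 against 21.2 to 35.4 CPM). CAST/EiJ WD replicate 3 stood apart in Itgam (2.85 against 0.262 to 0.662 CPM) but not in Ptprc. The tests of diet, of 1 strain against the others, of steps between strains, of ratios and of pairs by r below were also run without each of these mice (chosen after seeing the data), and the calls lost are given beside the result. Counts of the gene lists moved by at most 2 genes without any of them.

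The members lie on 6 autosomes (coordinates of GRCm38, 1-based). Sele (ENSMUSG00000026582) at chr1:164048234-164057677 and Selp (ENSMUSG00000026580) at chr1:164115264-164150026 are neighbours on the plus strand. Itgal (ENSMUSG00000030830, chr7:127296260-127335138) and Itgam (ENSMUSG00000030786, chr7:128062640-128118491) share chromosome 7, and Itga4 (ENSMUSG00000027009, chr2:79255426-79333123) and Cd44 (ENSMUSG00000005087, chr2:102811141-102901665, minus strand) share chromosome 2. Icam1 (ENSMUSG00000037405) is at chr9:21015985-21028817, Vcam1 (ENSMUSG00000027962) at chr3:116109949-116129688 on the minus strand and Itgb2 (ENSMUSG00000000290) at chr10:77530252-77565708.

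The promoters of both selectins and of Itgam are shown because Sele held the largest diet effect of the list, Selp is its neighbour and Itgam had the smallest counts among the integrins. Each run is the 250 bases before the RefSeq start site in GRCm38.p6 (C57BL/6J), on the plus strand, with matches to the searched motifs in capitals. Sele is chr1:164047984-164048233, Selp is chr1:164115014-164115263 and Itgam is chr7:128062390-128062639.
Sele: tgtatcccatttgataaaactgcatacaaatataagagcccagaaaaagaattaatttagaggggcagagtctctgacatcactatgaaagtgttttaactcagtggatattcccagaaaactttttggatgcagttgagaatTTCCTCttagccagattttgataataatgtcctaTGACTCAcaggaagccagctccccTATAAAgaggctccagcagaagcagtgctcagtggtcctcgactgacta
Selp: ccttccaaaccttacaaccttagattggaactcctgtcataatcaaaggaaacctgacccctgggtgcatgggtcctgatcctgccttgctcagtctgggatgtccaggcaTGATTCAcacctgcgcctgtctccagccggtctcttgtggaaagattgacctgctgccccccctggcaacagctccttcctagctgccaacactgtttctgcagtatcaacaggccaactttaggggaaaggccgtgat
Itgam: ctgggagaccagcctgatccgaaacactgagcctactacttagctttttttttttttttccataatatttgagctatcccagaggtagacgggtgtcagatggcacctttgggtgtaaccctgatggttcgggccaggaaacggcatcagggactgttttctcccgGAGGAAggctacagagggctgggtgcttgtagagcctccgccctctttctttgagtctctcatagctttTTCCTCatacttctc
The motifs were searched on both strands of the 6 members with an entry in the RefSeq table (Icam1, Sele, Selp, Itgam, Itga4 and Cd44), and Vcam1, Itgal and Itgb2 are named only. The AP-1 motif (TGANTCA) was found in Sele, at bases -73 to -67 from the start site, and in Selp, at -139 to -133, which is 2 of 6 beside 6.75% of 32851 promoters of the same length. The PU.1 motif (GAGGAA, or TTCCTC on the other strand) was found in 3 of 6, beside 23.3% of all promoters: Itgam at -84 to -79 and -15 to -10, Sele at -107 to -102, and Cd44 at -243 to -238 and -220 to -215. The TATA motif (TATAAA) was found in Sele alone, at -49 to -44, beside 12.4% of all promoters. An exact match to the NF-kappaB motif searched was found in 0 of 6, beside 3.90% of all promoters. Sequences that only resemble the motif were not counted, such as ggatattccc in Sele and tggaaattcc in Icam1. The search therefore does not show that these windows lack NF-kappaB sites. No motif overlapped another, and these matches describe the letters of the window only.

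Per kilobase of exon that no other gene shares on the same strand, Itgb2 was the most abundant member over the 93 mice, at 4.05 CPM per kb. Itgb2 encodes the beta chain common to LFA-1 and Mac-1. The integrin ligands Vcam1 (3.16 CPM per kb) and Icam1 (3.06) followed, then Itgal (2.34), the alpha chain of LFA-1, and Cd44 (1.73). Itga4 (0.559), the alpha chain of VLA-4, Selp (0.550) and Itgam (0.478), the alpha chain of Mac-1, formed a lower group, and Sele was lowest, at 0.0932 CPM per kb. The value of Itgam depends on its annotation. Its 5024 exon bases are shared with the same-strand gene Gm49368 except for 1574, and over all its exon bases its level would be 0.15 CPM per kb. Itgam had 8 to 204 reads per mouse and Gm49368 at most 3, and the gene counts were made with STAR, whose summary line of reads that fall on more than 1 gene was left out here.

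**Figure D1:**
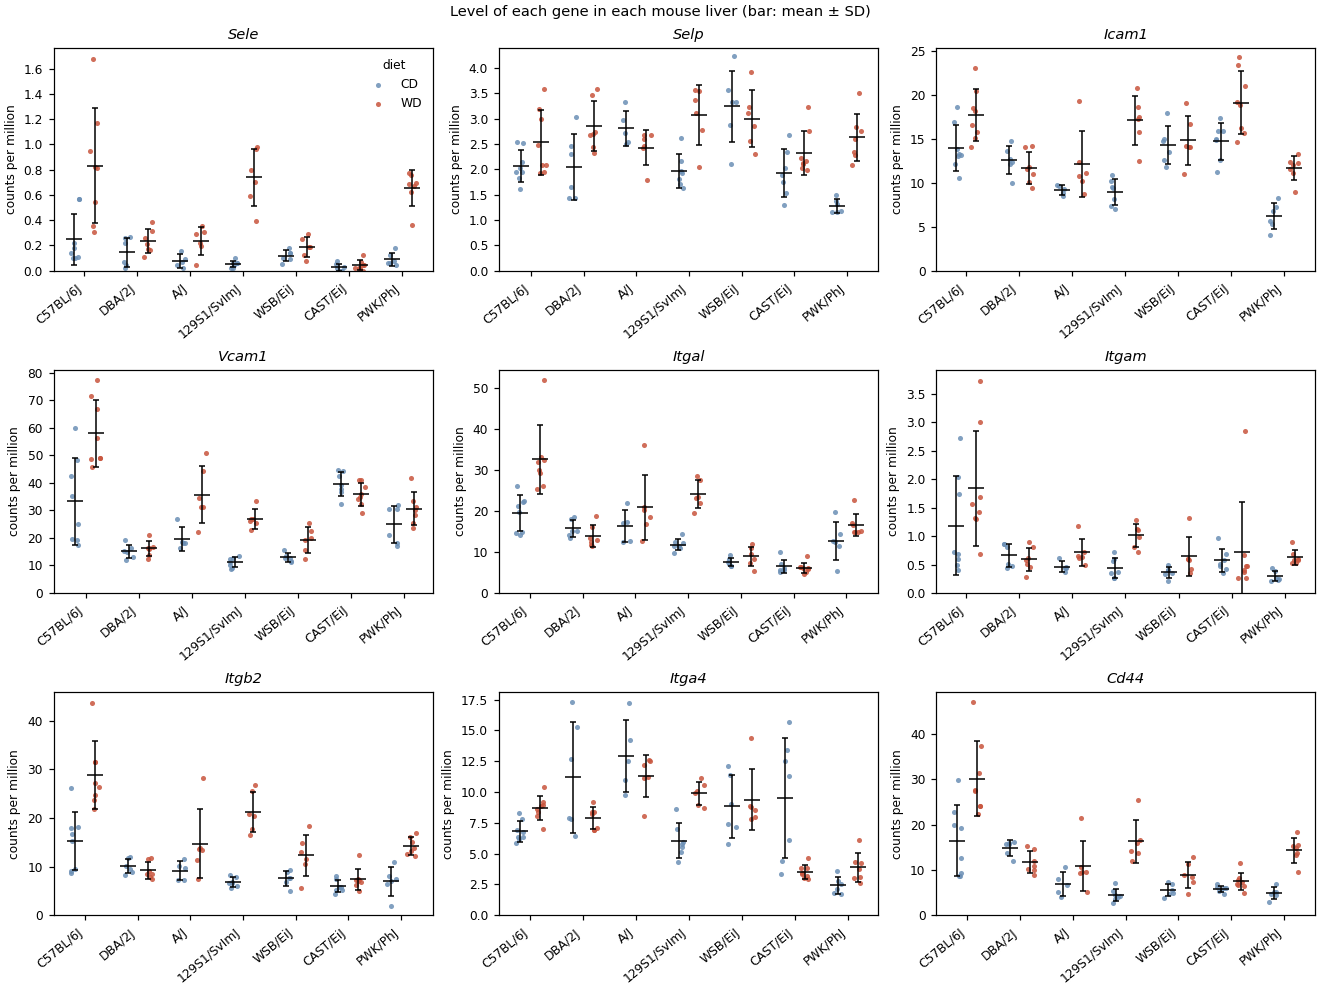
Level of each of the 9 genes in CPM (vertical axis) in each mouse, by strain (horizontal axis) and diet (blue CD, red WD), with the mean and SD of each group as black bars. On WD, Sele lies between 0.395 and 0.982 CPM in 129S1/SvImJ, above all CD mice of that strain, while in CAST/EiJ both diets stay at or below 0.121 CPM.

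The first question was which of these genes WD changed within each strain. In 129S1/SvImJ all 9 were higher on WD, in C57BL/6J and in PWK/PhJ 7 were, and in DBA/2J, A/J and CAST/EiJ 1 each was. No member passed the test in WSB/EiJ, and the 1 member that fell was Itga4 in CAST/EiJ. The test was limma-voom across all genes, with Benjamini-Hochberg adjustment within each strain at 0.05. The shares of all 19110 genes called higher were 14.5% in 129S1/SvImJ, 14.3% in C57BL/6J, 15.1% in PWK/PhJ, 10.2% in DBA/2J, 4.39% in A/J, 9.77% in CAST/EiJ and 4.97% in WSB/EiJ. The shares called lower were 13.6% in 129S1/SvImJ, 11.9% in C57BL/6J, 14.5% in PWK/PhJ, 7.77% in DBA/2J, 4.64% in A/J, 9.73% in CAST/EiJ and 3.97% in WSB/EiJ. In DBA/2J, A/J and CAST/EiJ, 1 of 9 is near the background. The median log2 fold change of the 9 was 1.21 (129S1/SvImJ), 1.03 (PWK/PhJ), 0.79 (C57BL/6J), 0.57 (A/J), 0.55 (WSB/EiJ), 0.28 (CAST/EiJ) and -0.12 (DBA/2J), where the median of all genes was between -0.01 and 0.02 in every strain. In WSB/EiJ, 3 members (Vcam1, Itgb2 and Cd44) had an unadjusted limma p under 0.05, and edgeR's quasi-likelihood test called 2 and DESeq2 called 3. Each strain was assayed in 2 cohorts, or 3 for CAST/EiJ, of which 1 held a single CD mouse. The 27 called values gave 56 comparisons of a member within a cohort, and in each the difference had the pooled direction. The pooled difference holds the same mice and only called values were looked at, so this is a description and not a replication.

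**Figure D2:**
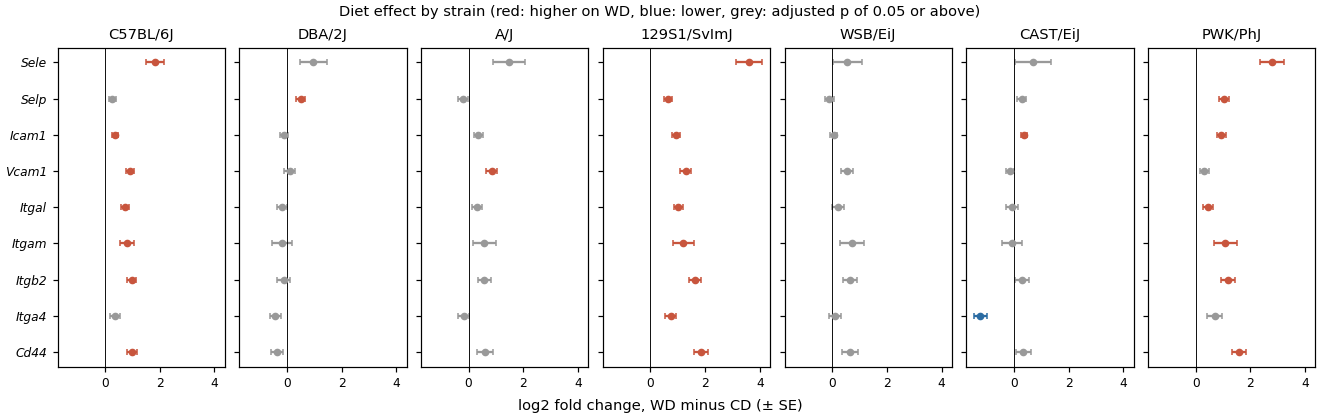
Log2 fold change, WD minus CD, with its SE (horizontal axis) for each gene (vertical axis) in the 7 strains, from limma-voom, with red for higher, blue for lower and grey for values that did not pass an adjusted p of 0.05. The points of 129S1/SvImJ are all red, those of WSB/EiJ are all grey, and Itga4 in CAST/EiJ, at -1.23, is the 1 blue point.

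Sele, E-selectin, is made by endothelium that cytokines have activated, and in each of the 3 strains where it was called it had the largest log2 fold change of the members. In 129S1/SvImJ on CD its level was 0.0210 to 0.0985 CPM with a median of 0.0619 (1 to 4 reads per mouse), and on WD 0.395 to 0.982 with a median of 0.750 (19 to 50 reads). The groups did not overlap, and the log2 fold change was 3.62 ± 0.48 (SE, adjusted p = 8.5e-09, limma). In PWK/PhJ Sele was at 0.0422 to 0.181 CPM on CD (median 0.0720) and 0.359 to 0.777 on WD (median 0.686), again with all 7 WD mice above all 6 CD mice. The log2 fold change was 2.79 ± 0.45 (adjusted p = 7.6e-07, limma). In C57BL/6J it was at 0.0982 to 0.571 CPM on CD (median 0.161) and 0.306 to 1.68 on WD (median 0.817), with 5 of 8 WD mice above all CD mice and a log2 fold change of 1.83 ± 0.33 (adjusted p = 9.3e-06, limma). In A/J the 5 CD mice had 0.0924, 0.160, 0.0434, 0.0667 and 0.0216 CPM and the WD mice 0.0415 to 0.353 (median 0.257). The log2 fold change there was 1.49 ± 0.58 (adjusted p = 0.089, limma). It was called with edgeR (adjusted p = 0.039), DESeq2 (0.029) and limma with quality weights (0.019). In CAST/EiJ the gene was at the edge of detection, with 0 to 3 reads on CD and 0 to 5 on WD, and 4 mice without a read.

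Selp, P-selectin, is stored in endothelial cells and platelets and moved to the surface on activation, so its RNA need not follow its display. In PWK/PhJ it was at 1.15 to 1.50 CPM on CD (median 1.24) and 2.08 to 3.5 on WD (median 2.60). All 7 WD mice were above all CD mice, and the log2 fold change was 1.03 ± 0.17 (adjusted p = 1.7e-06, limma). It also rose in 129S1/SvImJ, by 0.63 ± 0.15 (adjusted p = 0.001, limma), from 1.63 to 2.61 CPM on CD (median 1.93) to 2.05 to 3.57 on WD (median 3.25). In DBA/2J it was the 1 member called, at 1.43 to 3.03 CPM on CD (median 1.98) and 2.32 to 3.58 on WD (median 2.7), with overlapping groups. The log2 fold change was 0.51 ± 0.16 (adjusted p = 0.016, limma, and 0.053 in a separate fit for each strain). In A/J and WSB/EiJ its log2 fold changes were below 0, at -0.21 ± 0.17 (adjusted p = 0.48) and -0.10 ± 0.16 (adjusted p = 0.79, limma). Exons of Selp overlap Gm16587 and Gm16548 on the other strand, and whether the counting used strand is not given in the sources used here, so reads on the overlap cannot be told apart. The summed level of the platelet and megakaryocyte markers was 3.12 to 5.13 CPM on CD and 3.15 to 4.52 on WD in PWK/PhJ, and the part of platelets in the Selp level was not tested.

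Icam1, the ligand of LFA-1 and Mac-1 on endothelium and on many other activated cells, was called in 4 strains, the most of any member. In 129S1/SvImJ it was at 6.96 to 10.9 CPM on CD (median 9.40) and 12.5 to 20.7 on WD (median 17.4), and in PWK/PhJ at 4.10 to 8.30 on CD (median 6.17) and 8.97 to 13.3 on WD (median 12.0). In both strains each WD mouse was above each CD mouse, and the log2 fold change was 0.94 (SE 0.14 and 0.16, adjusted p = 1.6e-07 and 1.4e-06, limma). In CAST/EiJ the log2 fold change was 0.37 ± 0.12 (adjusted p = 0.025) and in C57BL/6J 0.35 ± 0.11 (adjusted p = 0.016, limma). Both of these calls were lost in a separate fit for each strain (adjusted p = 0.053 in CAST/EiJ and 0.056 in C57BL/6J), and that of CAST/EiJ also without the filter on low counts (adjusted p = 0.050). In A/J the log2 fold change had the same size, 0.35 ± 0.16, but did not pass (adjusted p = 0.17, limma). In DBA/2J it was -0.10 ± 0.14 and in WSB/EiJ 0.05 ± 0.14.

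Vcam1, the ligand of VLA-4, is made by activated endothelium and in the liver also by other cells, among them Kupffer cells and stellate cells. In 129S1/SvImJ it was at 8.55 to 13.4 CPM on CD (median 11.3) and 22.9 to 33.3 on WD (median 26.5), without overlap, a log2 fold change of 1.29 ± 0.20 (adjusted p = 3.3e-07, limma). In C57BL/6J it was at 17.3 to 59.9 CPM on CD (median 30.1) and 45.7 to 77.5 on WD (median 52.7), and 3 of 8 WD mice were above all CD mice. The log2 fold change was 0.91 ± 0.16 (adjusted p = 4.2e-06, limma). Vcam1 was the 1 member called in A/J, where the CD mice had 18.1, 26.9, 16.2, 18.6 and 18.0 CPM and the WD mice 22.1 to 51.0 (median 32.9), a log2 fold change of 0.84 ± 0.20 (adjusted p = 0.0028, limma). PWK/PhJ was at 16.9 to 32.0 CPM on CD and 23.6 to 41.7 on WD, and its log2 fold change of 0.32 ± 0.18 did not pass (adjusted p = 0.17, limma). In CAST/EiJ, which had the highest mean level of Vcam1 on CD (32.2 to 44.7 CPM), the log2 fold change was -0.14 ± 0.16 (adjusted p = 0.63, limma).

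Itgb2 pairs with Itgal to form LFA-1 and with Itgam to form Mac-1. Among the 4 subunits described here it had the largest log2 fold change in 129S1/SvImJ, at 5.64 to 8.32 CPM on CD (median 6.63) and 16.4 to 26.7 on WD (median 20.6). All 6 WD mice were above all CD mice, and the log2 fold change was 1.63 ± 0.23 (adjusted p = 4.0e-08, limma). In PWK/PhJ it was at 1.99 to 11 CPM on CD (median 7.18) and 12.1 to 17.0 on WD (median 13.9), also without overlap, a log2 fold change of 1.18 ± 0.24 (adjusted p = 6.5e-05, limma). In C57BL/6J it was at 8.76 to 26.1 CPM on CD (median 16.0) and 21.9 to 43.7 on WD (median 26.8), and 5 of 8 WD mice were above all CD mice, a log2 fold change of 0.97 ± 0.17 (adjusted p = 8.5e-06, limma). In WSB/EiJ 5 of 6 WD mice were above all CD mice, but the log2 fold change of 0.66 ± 0.26 did not pass (adjusted p = 0.10, limma, against 0.038 with edgeR and 0.027 with DESeq2).

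Itgal was called in the same 3 strains as Itgb2, with a smaller estimate in each, a difference that was not tested. In 129S1/SvImJ it was at 9.83 to 14.5 CPM on CD (median 11.5) and 19.4 to 28.6 on WD (median 23.4), a log2 fold change of 1.02 ± 0.17 (adjusted p = 2.6e-06, limma). In C57BL/6J it was at 14.1 to 26.2 CPM on CD (median 20.5) and 25.4 to 52.0 on WD (median 31.0), a log2 fold change of 0.74 ± 0.14 (adjusted p = 3.0e-05, limma). In PWK/PhJ it was at 5.47 to 19.7 CPM on CD (median 12.6) and 14.9 to 22.6 on WD (median 15.2), a log2 fold change of 0.46 ± 0.18 (adjusted p = 0.038, limma). This last call was lost without PWK/PhJ CD replicate 5 (log2 fold change 0.24, adjusted p = 0.32) with edgeR and DESeq2 (adjusted p = 0.10 and 0.087), without the filter on low counts (0.084) and in a separate fit for each strain (0.09). In DBA/2J, 5 of 7 WD mice were below all CD mice and the log2 fold change was -0.19 ± 0.18 (adjusted p = 0.51, limma).

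Itgam was called in the same 3 strains from far fewer reads. In 129S1/SvImJ it was at 0.260 to 0.716 CPM on CD (median 0.362) and 0.728 to 1.29 on WD (median 1.04), without overlap, a log2 fold change of 1.21 ± 0.37 (adjusted p = 0.0084, limma). In PWK/PhJ it was at 0.211 to 0.438 CPM on CD (median 0.257) and 0.519 to 0.900 on WD (median 0.587), also without overlap, a log2 fold change of 1.09 ± 0.42 (adjusted p = 0.042, limma). In C57BL/6J it was at 0.412 to 2.72 CPM on CD (median 0.703) and 0.693 to 3.72 on WD (median 1.50), a log2 fold change of 0.79 ± 0.26 (adjusted p = 0.016, limma). The call in PWK/PhJ was lost without CD replicate 5 (log2 fold change 1.00, adjusted p = 0.091, limma) and without the filter on low counts (adjusted p = 0.067). The call in C57BL/6J was lost without WD replicate 4 (0.62, adjusted p = 0.071), with edgeR and DESeq2 (adjusted p = 0.13 with either) and in a separate fit for each strain (adjusted p = 0.21).

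Itga4, the alpha chain that pairs with Itgb1 as VLA-4 and with Itgb7 as the gut-homing integrin, was the member that changed in both directions. In 129S1/SvImJ it was at 4.31 to 8.63 CPM on CD (median 5.76) and 8.74 to 11.1 on WD (median 10.0), without overlap, a log2 fold change of 0.74 ± 0.20 (adjusted p = 0.0037, limma). In CAST/EiJ it was at 3.34 to 15.7 CPM on CD (median 11.3) and 2.97 to 4.68 on WD (median 3.37), a log2 fold change of -1.23 ± 0.23 (adjusted p = 3.4e-05, limma). Of the 7 CAST/EiJ CD mice, those at 3.34 and 4.39 CPM lay within the WD range and the other 5 above it, and 3 of 8 WD mice were below all CD mice. Within the 3 CAST/EiJ cohorts the log2 difference was -0.42 (with 1 CD mouse), -0.76 and -1.61. In DBA/2J the log2 fold change was -0.42 ± 0.20 (adjusted p = 0.13, limma, and 0.027 with cohort in the fit). There the CD mice of cohort 4 had 12.7, 15.3 and 17.3 CPM and those of cohort 5 had 7.80, 6.44 and 7.92, while the WD mice of both cohorts were at 6.92 to 9.23. The log2 difference was thus -0.87 within cohort 4 and 0.02 within cohort 5. In PWK/PhJ the log2 fold change was 0.69 ± 0.28 and did not pass (adjusted p = 0.057, limma), but edgeR (adjusted p = 0.012), DESeq2 (0.0069) and limma with cohort in the fit (0.72, adjusted p = 0.023), with separate fits for each strain (0.019), with quality weights (0.015), with upper-quartile factors (0.049) and with 10 counts in every mouse (0.043) called it.

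Cd44, the hyaluronan receptor of activated leukocytes and of several liver cells, had the largest fold change after Sele in 129S1/SvImJ and PWK/PhJ. In 129S1/SvImJ it was at 2.79 to 7.04 CPM on CD (median 4.21) and 11.9 to 25.3 on WD (median 15.1), a log2 fold change of 1.86 ± 0.26 (adjusted p = 4.0e-08, limma). In PWK/PhJ it was at 2.89 to 6.86 CPM on CD (median 4.86) and 9.57 to 18.3 on WD (median 14.9), a log2 fold change of 1.59 ± 0.26 (adjusted p = 1.0e-06, limma). The diets did not overlap in either strain. In C57BL/6J they did: CD mice were at 8.59 to 29.9 CPM (median 15.9) and WD mice at 22.4 to 46.9 (median 27.5), a log2 fold change of 0.97 ± 0.18 (adjusted p = 1.0e-05, limma). In DBA/2J 4 of 7 WD mice were below all CD mice, with a log2 fold change of -0.35 ± 0.22 (adjusted p = 0.29, limma, and 0.044 in a separate fit for each strain).

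Whether the diet effect itself differed between strains was tested with an F test in the same fit. It differed for 8 of 9 members, against 37.5% of all genes, and Itgam did not pass (adjusted p = 0.069, limma). The smallest adjusted p-values were those of Cd44 (3.0e-07) and Itga4 (6.6e-07). Each strain was then compared with the mean of the other 6. In 129S1/SvImJ the effect was larger for 7 members (Sele, Icam1, Vcam1, Itgal, Itgb2, Itga4 and Cd44), where 6.28% of all genes differed in either direction. The largest of these differences were 2.23 ± 0.52 for Sele (adjusted p = 0.0042, limma) and 1.22 ± 0.28 for Cd44 (adjusted p = 0.0034, limma). In PWK/PhJ it was larger for 3 members, Cd44 (0.91 ± 0.28), Selp (0.80 ± 0.18) and Icam1 (0.62 ± 0.17), beside 16.3% of all genes. That of Cd44 was lost without PWK/PhJ CD replicate 5 (0.77, adjusted p = 0.067, limma). In DBA/2J it was smaller for 4, Cd44 (-1.36 ± 0.24), Itgb2 (-1.01 ± 0.25), Itgal (-0.64 ± 0.19) and Icam1 (-0.60 ± 0.15), beside 7.77% of all genes. That of Itgal was lost without the filter on low counts (adjusted p = 0.054, limma). In CAST/EiJ it was smaller for Itga4 (-1.45 ± 0.25) and Vcam1 (-0.81 ± 0.18), beside 14.5% of all genes. No member differed in C57BL/6J (4.69% of all genes), A/J (0.466%) or WSB/EiJ (0.947%) with limma, where 3, 1 and 3 members had an unadjusted p under 0.05.

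Levels differed between strains for all 9 members on CD, where 93.7% of all genes did, and for 8 on WD, where 93.9% did, so the share among the members is near the background. Selp did not pass on WD (adjusted p = 0.056, limma). The strains were ordered by mean log2 CPM, and each strain was set against the next by an exact permutation of the mice (two-sided, adjusted over 108 such steps), which 11 steps passed. Strains were mostly assayed in different cohorts, and in 10 of these 11 steps both strains had no cohort in common, so that strain and cohort cannot be told apart there. For Vcam1 on WD, C57BL/6J and CAST/EiJ share 1 cohort, but the test took the mice of all cohorts together, so strain and cohort are only partly separated. In the shared cohort the 5 C57BL/6J WD mice were at 45.7 to 77.5 CPM and the 3 CAST/EiJ WD mice at 38.6 to 41.2, which was not tested. The share of unmapped reads also differed, at most 3.87% in C57BL/6J and up to 14.8% in CAST/EiJ. C57BL/6J had the highest mean of Sele, Itgal, Itgam, Itgb2 and Cd44 on both diets and of Vcam1 on WD, and CAST/EiJ had the highest mean of Icam1 on both diets and the lowest of Sele, Itgal, Itgb2 (both diets), Itgam and Cd44 (WD). The step from C57BL/6J down to the next strain passed for Vcam1 on WD (to CAST/EiJ, 0.68 on the log2 scale, exact permutation adjusted p = 0.016) and for Cd44 on WD (to 129S1/SvImJ, 0.89, exact permutation adjusted p = 0.021), and for no other member. Sele on WD fell into 3 tiers. C57BL/6J, 129S1/SvImJ and PWK/PhJ were at -0.38, -0.41 and -0.55 log2 CPM, DBA/2J, A/J and WSB/EiJ at -1.94 to -2.21, and CAST/EiJ at -3.60, and both steps between tiers passed (1.39 each, exact permutation adjusted p = 0.021). On CD no step in the order of Sele passed. For Cd44 on CD the step lay between DBA/2J (3.88) and A/J (2.72, exact permutation adjusted p = 0.023), so that the means of C57BL/6J and DBA/2J were above the other 5. Itgal had its step above WSB/EiJ and CAST/EiJ on either diet (0.64 on CD and 0.66 on WD, exact permutation adjusted p = 0.016 and 0.021). For Itga4 on CD it lay above PWK/PhJ (1.32, exact permutation adjusted p = 0.016), and on WD above PWK/PhJ and CAST/EiJ (1.06, exact permutation adjusted p = 0.016). Icam1 on CD had a step between DBA/2J and A/J (0.44, adjusted p = 0.043), and Itgb2 on WD between 129S1/SvImJ and PWK/PhJ (0.57, adjusted p = 0.021, exact permutation). The other steps did not pass after adjustment. Of these, 3 had an adjusted exact permutation p of 0.05: Selp on CD from A/J to C57BL/6J (0.44) and from CAST/EiJ to PWK/PhJ (0.55), and Vcam1 on WD from 129S1/SvImJ to WSB/EiJ (0.52). Without A/J WD replicate 3 or CAST/EiJ WD replicate 3 these 3 passed (adjusted exact permutation p = 0.047 each). Neither mouse is in these 3 steps, whose differences stayed the same, so only the adjustment over all steps moved. Itgam on WD from 129S1/SvImJ to PWK/PhJ (0.64, adjusted p = 0.034) was gained without the former mouse. Itgb2 on WD from DBA/2J to CAST/EiJ (0.45, adjusted p = 0.021, exact permutation) was gained without the latter. No step was lost without any of the 4 mice.

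Markers of leukocytes rose mainly in the 3 strains where Itgal, Itgam, Itgb2 and Cd44 were called. Itga4 departed from this, with calls higher in 129S1/SvImJ only and lower in CAST/EiJ. Of the 4 leukocyte genes Ptprc, Cd53, Laptm5 and Coro1a, 4 were higher on WD in PWK/PhJ, C57BL/6J and 129S1/SvImJ, 1 in WSB/EiJ and 0 in the other strains (limma). Their summed level was 21.1 to 35.6 CPM on CD and 57.9 to 83.9 on WD in 129S1/SvImJ, 13.5 to 42.7 and 41.7 to 68.7 in PWK/PhJ, and 42.1 to 109 and 85.6 to 143 in C57BL/6J. The diets overlapped in the last 2 of these strains and not in 129S1/SvImJ. They also overlapped in the other strains, with medians on CD and WD of 45.4 and 41.7 CPM (DBA/2J), 42.3 and 56.5 (A/J), 24.3 and 36.7 (WSB/EiJ), and 19.8 and 24.2 (CAST/EiJ). Beyond the ratios to these markers that follow, their part in the member results was not tested. Of 8 monocyte and macrophage markers, 8 were higher on WD in 129S1/SvImJ and in PWK/PhJ and 7 in C57BL/6J. In WSB/EiJ 3 of them were higher, in A/J and CAST/EiJ 1 each and in DBA/2J 0. Of 8 T cell markers, 7 were higher in 129S1/SvImJ, 1 each in PWK/PhJ, WSB/EiJ and CAST/EiJ and 0 in the other strains. Of 8 neutrophil markers, 6 were higher in 129S1/SvImJ, 4 in PWK/PhJ, 2 in C57BL/6J, 1 in DBA/2J and 0 in the other strains. Ly6g, a defining neutrophil gene, had no read in 47 of the 93 mice. Of 6 Kupffer cell markers, 2 were higher in 129S1/SvImJ and 1 each in C57BL/6J, PWK/PhJ and CAST/EiJ. In 129S1/SvImJ, PWK/PhJ and C57BL/6J 14.5%, 15.1% and 14.3% of all genes were higher, so 1 of 6 or of 8 there is near the background. In the other strains 4.39% to 10.2% of all genes were higher. The summed level of 6 endothelial markers was 121 to 224 CPM over all mice, and their median log2 fold change was between -0.22 (DBA/2J) and 0.20 (129S1/SvImJ).

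Markers of the other liver cells moved as well. The summed level of 6 hepatocyte markers was lower on WD without overlap in 5 strains. It went from 109000 to 129000 CPM on CD to 72500 to 87800 on WD in C57BL/6J and from 110000 to 133000 to 71200 to 95200 in PWK/PhJ, and A/J, WSB/EiJ and CAST/EiJ were the other strains without overlap. In 129S1/SvImJ the diets overlapped (94900 to 129000 and 75500 to 99100 CPM), as they did in DBA/2J. The sum mainly follows Alb, with a median of 85600 CPM over all mice against 9540 for Apoa1, the next. Alb and Apoa1 were called lower in 6 strains each, Serpina1a in 5, Ttr in 4, Hnf4a in 1 and Apob in 0 (limma). The marker called lower in CAST/EiJ was Alb. Of the 6 markers, 4 were lower in C57BL/6J, PWK/PhJ, 129S1/SvImJ and A/J, 3 in WSB/EiJ, 2 in DBA/2J and 1 in CAST/EiJ (limma). Of all genes, 11.9% to 14.5% were lower in C57BL/6J, PWK/PhJ and 129S1/SvImJ. The share was 3.97% to 9.73% in the other 4 strains, so the 1 in CAST/EiJ is near the background. The 6 cholangiocyte markers summed to 64.6 to 140 CPM on CD and 159 to 528 on WD in PWK/PhJ, where 5 were higher, and to 21.5 to 43.2 and 59.8 to 102 in 129S1/SvImJ. The sums also did not overlap in WSB/EiJ and CAST/EiJ. They mainly follow Spp1, with a median of 31.8 CPM over all mice against 5.27 for Sox9, the next. Spp1 was the 1 marker called higher in 129S1/SvImJ, CAST/EiJ and C57BL/6J. In WSB/EiJ, A/J and DBA/2J 0 were called higher, and 1 was lower in DBA/2J (limma). The 6 stellate cell markers summed to 145 to 241 CPM on CD and 267 to 313 on WD in PWK/PhJ, without overlap, and to 309 to 363 and 330 to 386 in 129S1/SvImJ. These sums mainly follow Dcn, with a median of 196 CPM over all mice against 68.2 for Reln, the next. In PWK/PhJ 2 of the 6 were called higher, Dcn and Pdgfrb, beside 15.1% of all genes. In C57BL/6J, 129S1/SvImJ and A/J 1 each was called higher (limma). The part of these cells in the member results was not tested.

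Each member was also compared with its reference: the mean log2 CPM of the 4 leukocyte genes for the integrins and Cd44, and that of 6 endothelial genes (Pecam1, Cdh5, Kdr, Tek, Tie1 and Egfl7) for the selectins, Icam1 and Vcam1. WD was tested against CD within each strain by two-sided exact permutation, adjusted over 63 tests, and 27 passed, of which 19 did with 1 gene (Ptprc or Pecam1) as the reference. The 4 members set against the endothelial reference moved away from it in one direction, with all 15 calls above 0. Sele rose relative to it by 2.82 in 129S1/SvImJ and 2.38 in PWK/PhJ on the log2 scale (exact permutation adjusted p = 0.0046 each), and by 1.66 in C57BL/6J (adjusted p = 0.014, exact permutation). Selp did so by 0.98 in PWK/PhJ, 0.75 in DBA/2J and 0.42 in 129S1/SvImJ, the last lost against Pecam1 alone. Vcam1 rose relative to the endothelial genes in 5 strains, by 1.09 (129S1/SvImJ), 0.91 (C57BL/6J), 0.88 (A/J), 0.67 (WSB/EiJ) and 0.35 (DBA/2J), and of these the calls in C57BL/6J and DBA/2J were lost against Pecam1 alone. The endothelial reference itself moved by -0.25 in DBA/2J and -0.13 in WSB/EiJ, where the test of Vcam1 alone did not pass. Icam1 rose relative to them in 4 strains, by 0.91 in PWK/PhJ and by 0.74, 0.40 and 0.38 in 129S1/SvImJ, CAST/EiJ and A/J, of which the call in PWK/PhJ held against Pecam1 alone. Icam1 and Vcam1 are made by other cells as well, so their calls do not place the change in endothelium.

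The integrins and Cd44 did not move as 1 group beside the leukocyte genes. Cd44 rose by more than the leukocyte genes in 129S1/SvImJ (0.59, exact permutation adjusted p = 0.022) and PWK/PhJ (0.58, adjusted p = 0.0046) and its ratio to them fell in DBA/2J (-0.22, adjusted p = 0.045). Itgb2 rose by more in 129S1/SvImJ (0.36, exact permutation adjusted p = 0.0082) and C57BL/6J (0.18, adjusted p = 0.022, lost against Ptprc alone). Itgal moved the other way, with a smaller change than the leukocyte genes in PWK/PhJ (-0.54), WSB/EiJ (-0.42) and 129S1/SvImJ (-0.24, exact permutation adjusted p between 0.0046 and 0.010). The ratio of Itga4 to the leukocyte genes fell in 4 strains, with log2 changes of -1.44 in CAST/EiJ, -0.53 in 129S1/SvImJ, -0.52 in WSB/EiJ and -0.48 in A/J, the last lost against Ptprc alone. Itgam gave no call in any strain, with differences between -0.27 and 0.25. None of the 27 calls was lost without any of the 4 mice that stood apart. These differences say how a member moved beside the markers and not in which cells.

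**Figure D3:**
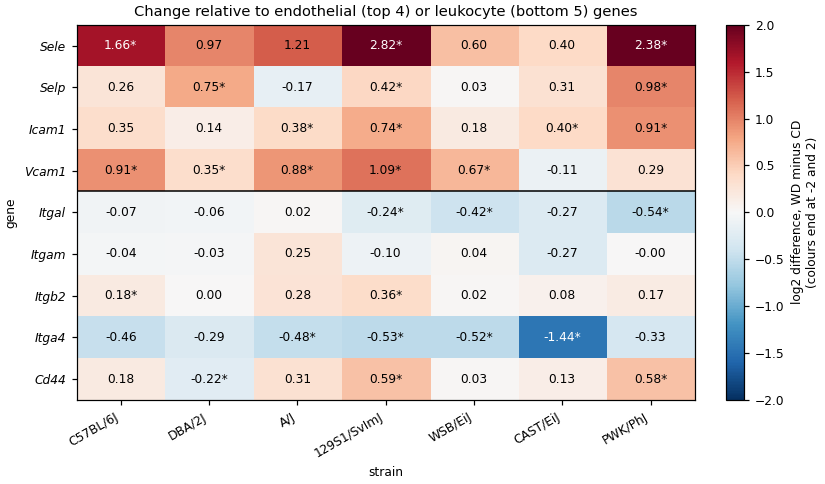
Change on WD (log2 scale, colour and printed value) of each gene relative to the mean of 6 endothelial genes (top 4 genes) or 4 leukocyte genes (bottom 5), by strain, with an asterisk where the exact permutation test passed after adjustment over 63 tests. Values of the top 4 genes run up to 2.82 for Sele in 129S1/SvImJ, and Itga4 in CAST/EiJ, at -1.44, is the lowest.

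Among mice of the same strain and diet, Itgal, Itgb2 and Cd44 varied together. After the 14 group means were taken out, Itgal and Itgb2, both chains of LFA-1, had r = 0.85 (rho = 0.81) over 93 mice, Itgb2 and Cd44 had r = 0.82 (rho = 0.77), and Itgal and Cd44 had r = 0.70 (rho = 0.65). Each had a permutation p of 1e-05, the smallest that 100000 permutations within groups can give, and an adjusted p of 4e-05 for r and 6e-05 for rho over 36 pairs. Without the 2 mice farthest from the median of the first gene these r were 0.80, 0.83 and 0.66. Vcam1 went with Cd44 (r = 0.66, rho = 0.56) and Itgb2 (r = 0.65, rho = 0.56) more closely than with Icam1 (r = 0.48, rho = 0.42) or Sele (r = 0.36, rho = 0.25), a difference between coefficients that was not tested. In all, 23 of 36 pairs passed by r and 21 by rho. With the mean of each cohort within a group also taken out (92 mice in 29 sets, computed after the data were seen), the first 3 pairs had r = 0.85, 0.82 and 0.70, and 23 of the 23 pairs kept their sign. The selectins Sele and Selp had r = 0.16 (adjusted permutation p = 0.2) and no pair with Selp passed. Itga4 passed with Vcam1 (r = 0.32, rho = 0.41) and Cd44 (r = 0.24, rho = 0.27), and with Itgb2 (r = 0.22, rho = 0.23, adjusted permutation p = 0.05). The last pair was lost without PWK/PhJ CD replicate 5, A/J WD replicate 3 or C57BL/6J WD replicate 4 (r = 0.19, 0.21 and 0.21), and the other 22 pairs remained without any of the 4 mice.

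**Figure D4:**
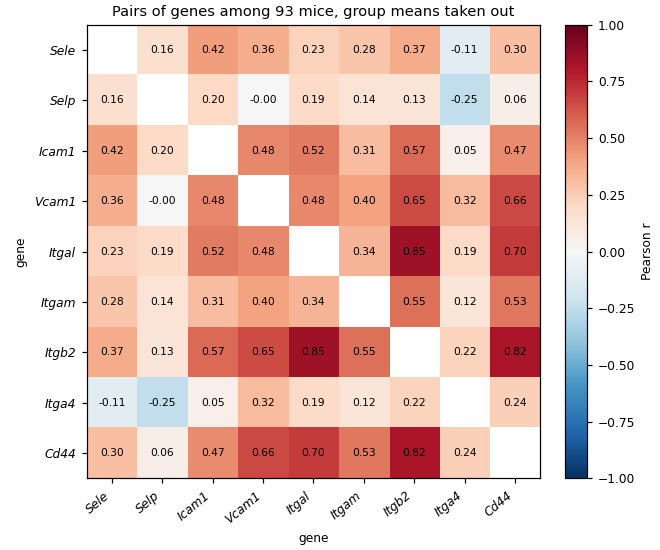
Pearson r between pairs of the 9 genes (both axes) over 93 mice, from log2 CPM with the mean of each strain and diet group taken out. The highest values join Itgal, Itgb2 and Cd44 (0.70 to 0.85), and Selp lies between -0.25 and 0.20 with every other gene.

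Over the 14 group means, the genes whose log2 CPM followed each member most closely were named as a description, since groups share strain, diet and the reference genome. Itgb2 was most like Cyba (r = 0.99), a subunit of the phagocyte oxidase, Arhgap25 (0.98) and Tnf (0.97). Itgal was most like Themis2 (0.98), Il2rg (0.97) and Fscn1 (0.97), Itgam like Slc11a1 (0.96) and Pkm (0.95), and Cd44 like Spi1 (0.96), which encodes PU.1, Pmaip1 (0.96) and Fcgr3 (0.95). Sele, an endothelial gene, was most like Ms4a4a, Runx1 and Ccr2 (0.96 each), the last a receptor of monocytes. Vcam1 was most like Parvg (0.94), Rnf150 (0.92) and Hey1 (0.91), and Icam1 like Ctla2a (0.89), Vwa1 (0.88) and Prokr1 (0.88). Selp had the loosest set, Ccne1 (0.89), Ace (0.78) and Trak2 (0.78).

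The gene most like Itga4 was Cerkl (r = 0.94 over 14 means, and 0.71 over 93 mice after group means were taken out), followed by Igf1os (0.92) and Gm28529 (0.91). Its r with the pan-leukocyte gene Ptprc was 0.21 over the 14 means and 0.32 over the 93 mice. Cerkl (ENSMUSG00000075256, chr2:79330543-79456785) lies on the other strand, and its exons overlap those of Itga4 at the 3′ end, so that 12854 of the 13978 exon bases of Itga4 are free of other genes on either strand. In CAST/EiJ Cerkl was at 0.455 to 3.49 CPM on CD and 0.170 to 0.858 on WD, a log2 fold change of -1.70 ± 0.41 (adjusted p = 0.0013, limma), and in the other 6 strains it did not pass. Its level was lowest in PWK/PhJ (0.0978 to 0.371 CPM over both diets), where Itga4 was also lowest on CD. Whether the counting used strand is not given in the sources used here, so reads on the overlap cannot be told apart, and their part in the Itga4 level was not tested.

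**Figure D5:**
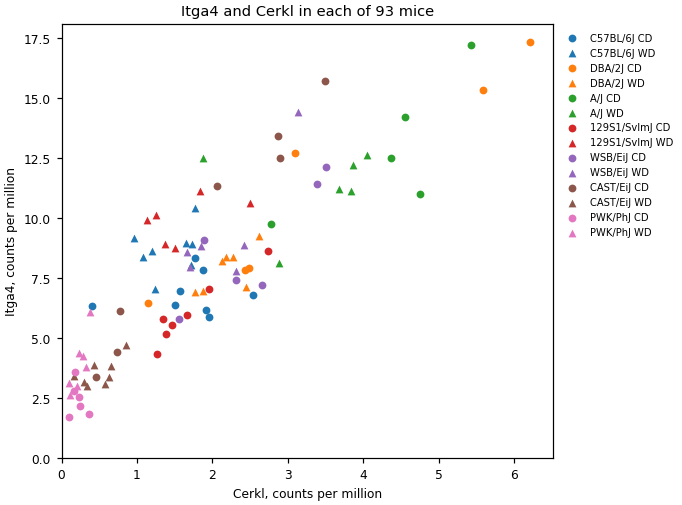
Level of Itga4 (vertical axis) against Cerkl (horizontal axis), both in CPM, in each of 93 mice, with colour for strain, circles for CD and triangles for WD. CAST/EiJ CD mice spread from 3.34 to 15.7 CPM of Itga4 along with Cerkl, and the CAST/EiJ WD mice gather at 2.97 to 4.68.

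The rest of the adhesion machinery was described from 6 lists. Of 8 selectin ligand genes and enzymes that build their sugars, 6 were higher on WD in PWK/PhJ, 5 in C57BL/6J, 4 in 129S1/SvImJ, 1 in A/J and none in the other 3 strains, and 1 was lower, in WSB/EiJ (limma). Their median log2 fold change was 0.98 in 129S1/SvImJ and -0.10 in DBA/2J. Of all genes, 15.1% were higher in PWK/PhJ, 14.3% in C57BL/6J, 14.5% in 129S1/SvImJ and 4.39% in A/J, and 3.97% were lower in WSB/EiJ. Fut7, the fucosyltransferase that completes selectin ligands, rose in 4 strains, by 2.76 ± 0.60 (PWK/PhJ), 1.74 ± 0.38 (129S1/SvImJ), 1.48 ± 0.47 (A/J) and 0.83 ± 0.31 (C57BL/6J) on the log2 scale (limma). Fut4 and Selplg, which encodes the P-selectin ligand PSGL-1, rose in 3 strains each, with log2 fold changes of 1.92 ± 0.39 and 1.50 ± 0.22 in 129S1/SvImJ.

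Of 11 other endothelial adhesion genes tested, 3 were higher and 2 lower in 129S1/SvImJ, 3 and 1 in PWK/PhJ, 2 and 1 in C57BL/6J, and none was higher in the other 4 strains, where up to 3 were lower (limma). The 3 lower in CAST/EiJ became 1 without its WD replicate 3. Of all genes, 14.3% to 15.1% were higher in 129S1/SvImJ, PWK/PhJ and C57BL/6J, and 11.9% to 14.5% were lower. The 2 higher in C57BL/6J and the counts lower in these 3 strains are near or below those shares. In the other 4 strains 3.97% to 9.73% of all genes were lower. F11r, the junctional adhesion molecule JAM-A, was lower in 4 strains, by at most -0.23 ± 0.06 (DBA/2J). Jam2 was higher in PWK/PhJ (0.76 ± 0.12), 129S1/SvImJ (0.69 ± 0.12) and C57BL/6J (0.34 ± 0.10), as was Pecam1 by 0.25 to 0.55. Stab1, a scavenger receptor of sinusoidal endothelium, was lower in DBA/2J (-0.38 ± 0.09) and CAST/EiJ (-0.23 ± 0.08).

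Of 20 other integrin subunits, 9 were higher in PWK/PhJ, 7 in 129S1/SvImJ, 4 in the C57BL/6J mice, 2 in WSB/EiJ, 1 each in DBA/2J and A/J and none in CAST/EiJ, where 3 were lower. In C57BL/6J and DBA/2J 2 were lower, in WSB/EiJ none was, and in the other 3 strains 1 was (limma). The 1 higher in each of DBA/2J and A/J, and the counts lower outside CAST/EiJ, are near or below the shares of all genes. The 4 higher in C57BL/6J became 6 without its WD replicate 4. Itgax, the CD11c chain that also pairs with Itgb2, rose in 5 strains, by 4.22 ± 0.51 (129S1/SvImJ), 3.75 ± 0.75 (WSB/EiJ), 2.53 ± 0.41 (PWK/PhJ), 1.91 ± 0.53 (A/J) and 1.83 ± 0.28 (C57BL/6J) on the log2 scale. Its fold change thus passed the test in WSB/EiJ and A/J, where neither Itgal nor Itgam was called. Itgad, the remaining alpha chain of that family, rose by 3.05 ± 0.52 in 129S1/SvImJ, 2.82 ± 0.45 in PWK/PhJ and 2.43 ± 0.63 in WSB/EiJ. Itga5, a fibronectin receptor chain, was lower in 5 strains, by 0.33 to 0.49 on the log2 scale, and Itga2, a collagen receptor chain, was higher in 3 and lower in CAST/EiJ (-1.93 ± 0.42).

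Of 15 genes that activate integrins, 12 were higher in C57BL/6J, 9 in 129S1/SvImJ and 7 in PWK/PhJ, and 1 each in the other 4 strains, and at most 2 were lower in any strain. Of all genes, 14.3% to 15.1% were higher in the first 3 strains and 4.39% to 10.2% in the other 4. The 1 higher in each of these 4, and the counts lower outside A/J, are near or below the shares of all genes. Cyth1 was lower in 4 strains and higher in C57BL/6J (0.21 ± 0.08), and Fermt2, a kindlin of cells outside the blood, was lower in 4. Stk4 was higher in 4 by at most 0.22 ± 0.05, and Cytip, of leukocytes, rose in 3 strains, most in 129S1/SvImJ (1.27 ± 0.24). Of 12 tested genes of CD44, its ligands and its partners, 7 were higher in 129S1/SvImJ, 5 in C57BL/6J, 4 in PWK/PhJ and 1 in CAST/EiJ, and none was lower in any strain (limma). The 1 in CAST/EiJ is near the share of all genes higher there (9.77%). Spp1, osteopontin, a ligand of CD44 and of integrins, rose in PWK/PhJ (1.73 ± 0.32), 129S1/SvImJ (1.50 ± 0.32), CAST/EiJ (0.92 ± 0.31) and C57BL/6J (0.75 ± 0.28). Vcan, versican, which binds hyaluronan, rose by 4.18 ± 0.53 in PWK/PhJ, Msn by 0.73 ± 0.12 and Hmmr by 2.12 ± 0.69 in 129S1/SvImJ. Of 11 genes of the NF-kappaB pathway and its inducers, 7 were higher in C57BL/6J, 5 in the PWK/PhJ mice, 4 in 129S1/SvImJ, 3 in WSB/EiJ, 2 in A/J, 1 in DBA/2J and none in CAST/EiJ, and 1 was lower in each of the last 2 strains. The 1 higher in DBA/2J, and the 1 lower in DBA/2J and in CAST/EiJ, are near the shares of all genes. Tnfaip3, the feedback inhibitor A20, rose in 6 strains, from 0.65 ± 0.22 in DBA/2J to 1.60 ± 0.19 in 129S1/SvImJ, and had 0.42 ± 0.22 in CAST/EiJ (adjusted p = 0.18, limma). Nfkb2 rose in 5 strains and Relb in 4, both including WSB/EiJ (0.54 ± 0.14 and 0.92 ± 0.27), and Tnf rose in 3, by 3.74 ± 0.55 in 129S1/SvImJ. The median log2 fold change of the other 5 lists was between 0.01 and 0.50 in 129S1/SvImJ and between -0.23 and 0.00 in DBA/2J, beside medians of all genes between -0.01 and 0.02.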

How the data were processed

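Liver RNA-seq of 93 male mice was used. The authors mapped and counted the reads with STAR (2.7.1a in the submitters' processing notes) on the C57BL/6J genome and deposited raw counts, whole numbers of reads per gene and mouse. The 4 summary lines (19.9% to 34.7% of the reads of a mouse) were left out. Totals on genes ran from 40020424 to 49894856 reads, and at low counts counting error adds to the spread. All 93 columns were used. Where nothing says that mice came from separate litters, p-values measure the spread between these mice.

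Counts were fitted with limma 3.58.1 (voom) on TMM factors of edgeR 4.0.16 in R 4.3.3, with filterByExpr at a minimum count of 10 and 14 group means. CPM used TMM library sizes, and log2 CPM a prior count of 2. Contrasts were WD minus CD within strain, each strain against the other 6, and F tests. Exact permutation tests used Python 3.11.15. Replicate numbers follow accession order and pair nothing. The fits were tested on simulated data, where false calls were somewhat above the nominal share and a first pass mark for changed genes recovered was missed and then replaced. The alternatives, DESeq2 1.42.0 among them, are below. The members and lists were chosen with earlier results of these data known. All 9 members are named, and from each list up to 4 genes called the same way in the most strains, with ties broken by the larger mean absolute log2 fold change, and for each member the 3 genes most like it over the group means, apart from 2 genes that are not reported here. Gene models are GENCODE M21 (GRCm38), and promoters are RefSeq's (GRCm38.p6).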

Additional observations from a re-analysis of the deposited data

Results flagged for a closer look

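In 11 of 126 combinations of member and group, the highest or lowest mouse was separated from the rest by a gap, taken as a share of the group's range in log2 CPM, above Dixon's critical value. Chance flags about 1 in 20 such groups. In A/J these were Vcam1 on CD (replicate 2, 26.9 CPM against 16.2 to 18.6, share 0.734), Sele on WD (replicate 6, 0.0415 against 0.195 to 0.353, share 0.670), Selp on WD (replicate 5, 1.78 against 2.43 to 2.68, share 0.761) and Itga4 on WD (replicate 6, 8.09 against 11.1 to 12.6, share 0.713). In PWK/PhJ they were Sele on WD (replicate 7, 0.359 against 0.626 to 0.777, share 0.715), Itgal on WD (replicate 7, 22.6 against 14.9 to 17.0, share 0.686) and Itgb2 on CD (replicate 5, 1.99 against 6.47 to 11, share 0.687). In CAST/EiJ, WD replicate 3 was highest for both Itgam (2.85 against 0.262 to 0.662, share 0.628) and Itgb2 (12.4 against 5.00 to 7.48, share 0.558). The others were Itgal in C57BL/6J WD (replicate 4, 52.0 against 25.4 to 33.2, share 0.626) and Itga4 in WSB/EiJ WD (replicate 4, 14.4 against 7.78 to 8.86, share 0.789).

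In 16 of 63 tests the diet effect of a member in 1 strain differed from the mean of the other 6 (limma, adjusted p under 0.05). In 129S1/SvImJ the log2 differences were 0.61 for Icam1, 0.86 for Vcam1, 2.23 for Sele, 0.78 for Itgal, 1.03 for Itgb2, 0.85 for Itga4 and 1.22 for Cd44. In PWK/PhJ they were 0.62 for Icam1, 0.80 for Selp and 0.91 for Cd44. In DBA/2J they were -0.60 for Icam1, -0.64 for Itgal, -1.01 for Itgb2 and -1.36 for Cd44, and in CAST/EiJ -0.81 for Vcam1 and -1.45 for Itga4.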

How the results depend on the processing

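No called value changed direction under any alternative run. Of the 27 diet calls, 25 were shared with edgeR's quasi-likelihood test and with DESeq2, 27 with upper-quartile factors, RIN or cohort as a covariate and sample quality weights, 24 without a filter on low counts, and 22 with a separate fit for each strain. Sele and Itgam were not tested where every mouse needed 10 counts, which left 21 calls shared. Counts of members higher on WD that moved by over 1.5 times were, in A/J, 2 with edgeR, 3 with DESeq2 and 2 with quality weights (1 in the report), and in WSB/EiJ 2 with edgeR, 3 with DESeq2, 1 with separate fits and 2 with quality weights (0 in the report). In CAST/EiJ the count was 0 without a filter and 0 with separate fits, and in DBA/2J 0 with separate fits, where each call lost had an adjusted p between 0.050 and 0.053. Members lower on WD in DBA/2J numbered 1 with cohort as a covariate (Itga4) and 1 with separate fits (Cd44). The cause of these changes was not tested. Leaving out each A/J CD mouse in turn kept the same 27 calls. Leaving out PWK/PhJ CD replicate 5 or C57BL/6J WD replicate 4, mice chosen after seeing the data, ended 2 and 1 of them, and the first also ended the call that Cd44 differed in PWK/PhJ from the other strains, and leaving out A/J WD replicate 3 or CAST/EiJ WD replicate 3 ended none. Itga4 in PWK/PhJ, not called in the report, was called under 7 of the alternatives that kept all mice. No paired analysis was possible because the labels give the mice no replicate numbers, and those used here only follow accession order.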
